A study of Homo sapiens with 120 samples.

Results

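The saline arm consisted of 16 microraft libraries of CFPAC-1, a cell line grown from a human pancreatic ductal adenocarcinoma, out of 120 libraries in the series. Microrafts are tiny detachable squares of a culture array that can be lifted out one at a time with the cells growing on them. Members were all rafts labelled as treated with saline, with the saline arm's own water library left out. The label gave 8 of them as proliferative and 8 as nonproliferative, and the 2 classes shared cell line, saline treatment and raft isolation. Neither the criterion nor the time of that scoring is given in the sources used here. The number of cells on each raft was labelled unknown, so more cells and more RNA per cell cannot be told apart. The other arms held rafts of the same line, 8 per class in each, that were untreated or treated with 2 nM or 5 nM gemcitabine, a cytidine analog that stops DNA synthesis. Values were FPKM, read fragments scaled to transcript length and to library size, for 30504 rows. Below, a detected gene is one with an FPKM of at least 1. The deposited values hold no read counts, so depth is unknown. Replicates are numbered within each class in the order of the labels. The labels name no separate cultures, so p-values measure only the spread between rafts. For single genes that spread was taken over the rafts of all arms together, not over the saline rafts alone.

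A dividing cell makes its cycle proteins in waves. DNA replication genes, such as those of the MCM helicase and PCNA, rise when a cell leaves G1 for S phase, and mitotic genes, such as CCNB1, CDK1 and PLK1, rise in G2 and mitosis. Many mitotic genes are switched by the DREAM and MuvB complexes together with NF-Y, acting on promoter elements known as CHR and CCAAT boxes. In cells that have left the cycle both waves are off, while ribosomal, mitochondrial and proteasome genes stay on.

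The libraries differed widely before any gene was compared. Proliferative replicates 1 to 8 had 9525, 9195, 4811, 10099, 735, 7781, 6551 and 4029 genes detected. Nonproliferative replicates 1 to 8 had 1011, 980, 10424, 1664, 7093, 8234, 9107 and 6428. Spearman rho with the mean of the 4 bulk libraries, across 10767 genes of mean bulk FPKM 1 or more, lay between 0.466 and 0.808 in 7 proliferative libraries and was 0.080 in replicate 5. In nonproliferative replicates 5 to 8 it was 0.611, 0.747, 0.705 and 0.608, within the range of the proliferative class. In nonproliferative replicates 1 to 4 it was -0.039, -0.012, -0.104 and -0.028, and in the saline water library it was 0.011. The share of detected genes with a mean bulk FPKM under 1 was 8.11% to 11.5% in the 11 libraries of high rho, 27.6% in proliferative replicate 5, 39.6% to 52.1% in nonproliferative replicates 1 to 4 and 40.9% in the saline water. Nonproliferative replicate 3 combined the most genes of all 16 rafts with the lowest rho.

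**Figure D1:**
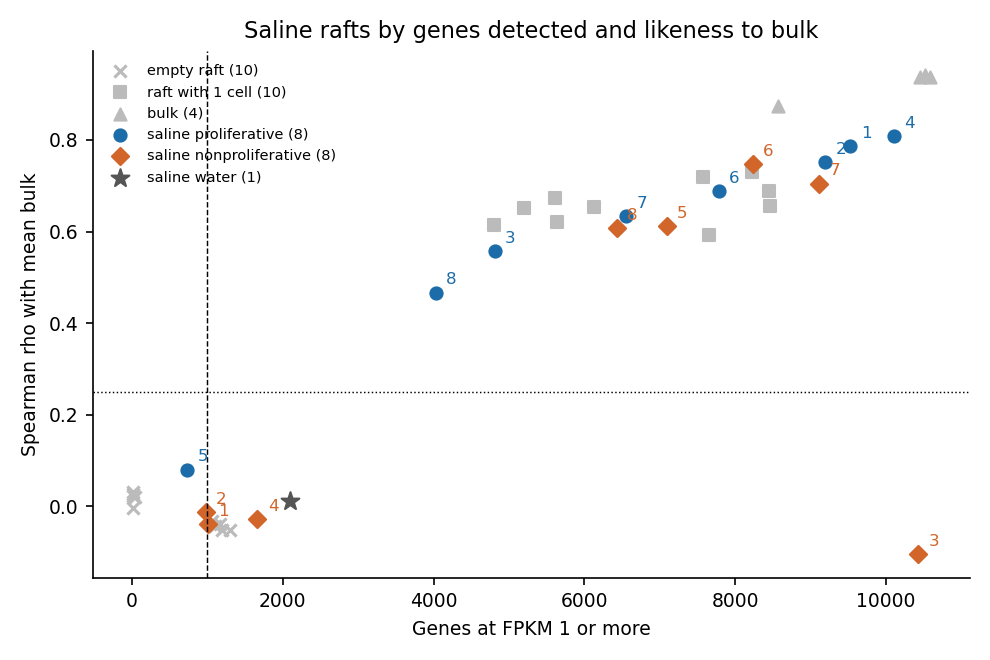
Each point is 1 library, with genes at FPKM 1 or more on the horizontal axis and Spearman rho with mean bulk on the vertical axis. Numbers are replicates, the dashed line marks 1000 genes and the dotted line a rho of 0.25. The 5 saline rafts below a rho of 0.25 lie with the empty rafts and the saline water, except nonproliferative replicate 3 at 10424 genes.

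Averaged over all 8 rafts, the classes differed by less than the tests could separate after adjustment. Proliferative rafts had 6591 ± 3232 genes detected and nonproliferative rafts 5618 ± 3842 (SD, n = 8 each), a difference of 973.1 (two-sided exact permutation p = 0.585, adjusted over the 3 measures 0.585). Mean rho was 0.596 ± 0.239 against 0.311 ± 0.385 (exact p = 0.098, adjusted 0.147). The off-bulk share was 11.8% ± 6.56 against 26.9% ± 18.7, lower by 15.1 percentage points (exact p = 0.047, adjusted 0.140). The ranges of the 2 classes overlapped for all 3 measures.

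Some libraries of low rho also shared transcripts with the blank, shown here for genes picked from earlier results of these data. PCSK5, a secretory pathway protease, was at 1476, 562, 3134 and 565 FPKM in nonproliferative replicates 1 to 4 and at 3525 FPKM in the saline water, against 0 to 11.2 in the other 12 rafts. TMEM45A, a membrane protein, was at 3835, 538, 2758 and 439 FPKM in the same 4 libraries, 182 in proliferative replicate 5 and 3979 in the water, against 0 to 7.28 elsewhere. Spearman rho between whole libraries was 0.513 to 0.854 among the 11 rafts of high rho, 0.123 to 0.294 among the other 5, 0.135 to 0.278 between those 5 and the water, and 0.119 to 0.147 between the 11 and the water. Proliferative replicate 5, at 0.135, lay within that last range, and nonproliferative replicates 1 to 4 were at 0.201 to 0.278. Single cycle genes could still be high in such libraries. TOP2A, the topoisomerase of dividing cells, was at 5319 FPKM in nonproliferative replicate 1 and MKI67, the Ki-67 antigen, at 2587 FPKM in proliferative replicate 5, while CCNB1 and PLK1 were listed at 0 in both. Each comparison is therefore given in 2 forms, with the 7 against 7 libraries of at least 1000 genes, and with the 7 against 4 whose rho was also 0.25 or more. The first set holds nonproliferative replicates 1, 3 and 4, and the second holds none of the 5.

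Markers of cell type were then counted in the 11 rafts of high rho, which the correlation with bulk CFPAC-1 had already chosen. Of 10 ductal markers 9 had a row of their own in the table, and 4 to 9 of them were detected in proliferative and 6 to 9 in nonproliferative rafts. KRT19 was not analysed here. KRT18, a simple-epithelium keratin, lay between 743 and 2606 FPKM in the proliferative rafts and at 520, 1695, 1368 and 279 FPKM in nonproliferative replicates 5 to 8. No endothelial marker was detected in these 11 rafts, at most 2 of 9 blood cell markers and at most 2 of 8 fibroblast markers were. Keratinocyte markers numbered 1 to 3 of 7.

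The G2 and mitosis genes separated the 11 rafts, though not wholly by class. Of 56 such genes, proliferative replicates 1 to 4 detected 51, 56, 38 and 56, replicate 6 detected 22, and replicates 7 and 8 detected 51 and 36. Nonproliferative replicates 5 to 8 detected 10, 54, 37 and 11. Nonproliferative replicate 6 thus detected as many as most proliferative rafts, and nonproliferative replicates 5 and 8 fewer than any of the 7. Nonproliferative replicates 5 and 8 had 7093 and 6428 genes in all, and proliferative replicate 8, with its 36 mitotic genes, had 4029. The rafts with 51 or more mitotic genes had 6551 to 10099. The part of the number of genes detected in the mitotic counts was not tested. Rafts labelled with 1 cell detected 21 to 55 of the same genes (median 45.0, n = 10), bulk 55 to 56, and empty rafts 0 to 2.

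DNA replication genes gave the same 2 lowest rafts. Of 53 genes of G1/S and replication, the 7 proliferative rafts detected 51, 51, 28, 52, 42, 46 and 28, and nonproliferative replicates 5 to 8 detected 14, 50, 49 and 13. The classes overlapped again. Detection of genes that every living cell uses was nearly complete in both classes of these rafts, so it could not separate them. All 68 cytosolic ribosomal protein genes were detected in 10 of the 11 rafts and 67 in proliferative replicate 8. All 31 proteasome genes were detected in 10 of the 11, all 58 genes of oxidative phosphorylation in 9, and the 4 nonproliferative rafts detected each of these genes. Their share of all FPKM did vary. Ribosomal protein genes took 7.73% to 11.2% in the 7 proliferative rafts and 6.599%, 9.17%, 7.74% and 6.48% in nonproliferative replicates 5 to 8. Proteasome genes took 1.92% to 2.90% against 1.08%, 1.91%, 1.91% and 1.88%, with the nearest values close together. Replicates 5 and 8 thus had the lowest ribosomal shares of the 11 rafts as well as the fewest cycle genes.

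**Figure D2:**
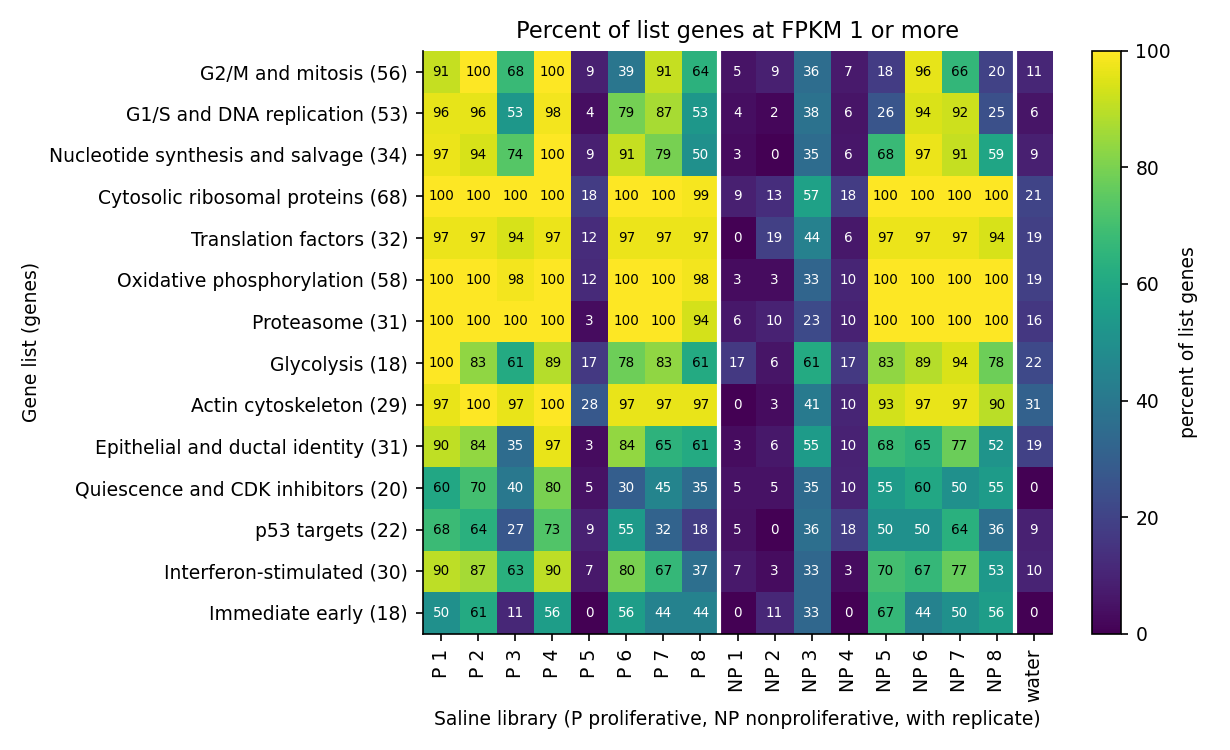
Percent of each gene list detected at FPKM 1 or more (colour and number) in the 8 proliferative (P) and 8 nonproliferative (NP) saline libraries and the saline water. Ribosomal, respiratory and proteasome lists are near 100 in 11 rafts, while the 2 cycle lists are between 18 and 26 in NP 5 and NP 8.

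CCNB1, the cyclin that activates CDK1 for mitosis, was detected in every proliferative raft of high rho, at 117, 295, 522, 276, 78.8, 726 and 303 FPKM. In nonproliferative replicates 5 to 8 it was at 0, 351, 59.1 and 0 FPKM. The proliferative mean of log2(FPKM + 1) was higher by 4.45 ± 1.69 (SE) in the 7 against 4 comparison and by 5.99 ± 1.60 in the 7 against 7, with adjusted p of 0.999 and 0.364 by limma across all genes. The classes overlapped, since nonproliferative replicate 6 lay above 5 proliferative rafts.

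Other division genes overlapped between the classes as well. PLK1, the kinase of centrosome maturation and mitotic exit, was at 56.1, 159, 275, 145, 0, 438 and 116 FPKM in the 7 proliferative rafts. The 4 nonproliferative rafts had 0, 110, 9.99 and 0 FPKM, and the difference was 3.74 ± 1.68 (adjusted p = 0.999 by limma). OIP5, a gene outside the fixed list that helps load the centromere histone CENPA, was at 30.1, 39.6, 87.1, 17.6, 0, 50.4 and 146 FPKM against 0, 18.1, 0 and 0 FPKM. HAUS7, also outside the list and a subunit of the augmin complex that branches spindle microtubules, was at 16.4 to 242 FPKM in all 7 proliferative rafts and at 0, 0, 29.9 and 26.5 FPKM in the nonproliferative ones. AURKA, the spindle pole kinase, was likewise detected in all 7, at 19.3 to 201 FPKM, and was at 0, 121, 14.1 and 0 FPKM in the others. RACGAP1, a cytokinesis protein, was at 6.51 to 85.7 FPKM in all 7 and at 0, 13.3, 0 and 0 FPKM in the others. Nonproliferative replicate 5 was listed at 0 for each of these genes, and none passed the test.

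CDK1 itself was less even: it was at 29.6 to 157 FPKM in 6 proliferative rafts, listed at 0 in replicate 6, at 218 FPKM in nonproliferative replicate 6 and at 0 in the other 3 nonproliferative rafts. UBE2C, which tags cyclins for destruction, was at 24.3 to 891 FPKM in the 7 and at 0, 706, 37.0 and 0 FPKM in the 4. MKI67 was detected in 4 of the 7 proliferative rafts at 5.56 to 28.2 FPKM and in 2 of the 4 nonproliferative rafts at 11.2 and 2.23 FPKM, so this widely used proliferation marker covered the classes less fully than CCNB1 did.

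Promoters are shown for CCNB1 and PLK1, the members of the mitotic list with the smallest p in the 7 against 7 comparison, and for OIP5 as a division gene outside it, because they hold motifs counted over the lists. Each line gives 150 bases upstream of the annotated start (GRCh38.p14), 5′ to 3′ on the gene's strand, with CCAAT or its reverse ATTGG and TTTGAA or its reverse TTCAAA in capitals. The windows lie at chr5:69167000-69167149 (plus strand), chr16:23678739-23678888 (plus strand) and chr15:41332592-41332741 (minus strand).
CCNB1: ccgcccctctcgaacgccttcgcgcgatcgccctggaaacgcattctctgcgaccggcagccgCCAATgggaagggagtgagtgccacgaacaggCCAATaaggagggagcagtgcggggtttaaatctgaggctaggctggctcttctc
PLK1: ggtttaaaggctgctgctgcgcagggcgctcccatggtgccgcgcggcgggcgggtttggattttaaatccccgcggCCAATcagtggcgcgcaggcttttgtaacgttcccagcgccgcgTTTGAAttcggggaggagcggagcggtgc
OIP5: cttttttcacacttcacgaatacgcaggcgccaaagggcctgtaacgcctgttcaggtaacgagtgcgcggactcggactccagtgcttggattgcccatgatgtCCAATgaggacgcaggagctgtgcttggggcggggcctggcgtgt
CCNB1 holds CCAAT 87 and 55 bases before its start, PLK1 holds CCAAT 73 and TTTGAA 29 bases before, and OIP5 holds CCAAT 45 bases before.

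Over whole windows of 300 bases, 250 before and 50 after the start, CCAAT stood on either strand in 67.2% of 61 windows of 47 G2 and mitosis genes, 56.5% of the 62 windows of 43 replication genes and 46.9% of 32 proteasome windows, against 34.6% of all 35116 windows and 35.3% of the 10400 windows of genes tested in the 7 against 4 comparison. TTTGAA, the core of the CHR element, stood in 59.0% of the mitotic windows, 4.84% of the replication windows, 15.2% of all and 10.3% of those of tested genes. GCGGGAA, a core that E2F factors are known to bind, or its reverse TTCCCGC, stood in 41.9% of the replication windows, 11.5% of the mitotic windows, 6.55% of all and 9.92% of those of tested genes. None of the 3 motifs contains another, though matches can overlap at their ends, several windows can belong to 1 gene, and a match is a description of letters and not of a bound site.

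Among replication genes, MCM2, a subunit of the helicase that opens DNA, was at 60.4, 44.0, 20.1, 22.1, 42.5, 103 and 219 FPKM in the 7 proliferative rafts. In the nonproliferative rafts it was at 0, 24.5, 38.5 and 0 FPKM, a difference of 3.26 ± 1.46 on the log2 scale (adjusted p = 0.999 by limma). CHAF1B, a chaperone that places histones on new DNA, was at 11.1 to 114 FPKM in all 7 and at 0, 8.66, 46.7 and 0 FPKM in the 4. PCNA, the sliding clamp of the replication fork, was at 96.5 to 204 FPKM in 6 proliferative rafts, listed at 0 in replicate 8, and at 16.5, 418, 123 and 0 FPKM in the nonproliferative rafts. RRM2, which makes deoxynucleotides, was detected in 5 of 7 proliferative rafts and at 128 and 54.9 FPKM in nonproliferative replicates 6 and 7. TYMS, thymidylate synthase, was at 2.12 to 156 FPKM in 5 of 7 and at 40.6 and 16.2 FPKM in the same 2 nonproliferative rafts. CCNE1, the cyclin of S phase entry, had a difference of -0.29 ± 1.41. It was at 0 to 83.0 FPKM in the 7 proliferative rafts, listed at 0 in nonproliferative replicate 5 and at 65.8, 102 and 54.2 FPKM in replicates 6 to 8.

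No gene passed the limma test at an adjusted p of 0.05 in the 7 against 7 comparison, 0.0% of 11560 genes. Without adjustment 950 genes had a p under 0.05 with a higher mean in proliferative rafts, 8.22% of those tested, and 322 with a lower one, 2.79%. The G2 and mitosis list was higher in 55 of 56 members with a median log2 difference of 2.59, and 28 members had an unadjusted p under 0.05. The G1/S list was higher in 51 of 53 with a median of 2.07 and 18 such members. Ribosomal protein genes were higher in 68 of 68 with a median of 3.65, proteasome genes in 31 of 31 with 3.82, and oxidative phosphorylation in 58 of 58 with 3.46, against a median of 0.44 over all genes tested. In this set these 3 lists had larger medians than the cycle lists. The 3 nonproliferative libraries of low rho in it detected 6 to 39 of the 68 ribosomal protein genes.

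In the 7 against 4 comparison the medians of ribosomal, proteasome and respiratory genes were all below 1, and the mitotic list had the largest median of the lists. The G2 and mitosis list was higher in 54 of 56 members with a median of 1.72, and 7 members had an unadjusted p under 0.05, against 1.08% of all 10083 genes in that direction and 2.24% in the other. G1/S genes were higher in 44 of 53 with a median of 1.01 and 3 such members. The median over all genes was -0.05. Proteasome genes had a median of 0.63 (28 of 31 higher), translation factors 0.53 (25 of 31), ribosomal protein genes 0.45 (59 of 68) and oxidative phosphorylation genes 0.14 (35 of 58). No member of these lists passed the adjusted test. The lists were not tested as sets.

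The cycle medians depended on single nonproliferative rafts. Without nonproliferative replicate 5 the G2 and mitosis median was 1.08 (51 of 56 higher) and without replicate 8 it was 1.11 (50 of 56). Without replicate 6, the nonproliferative raft with 54 mitotic genes, it was 2.69. The G1/S median was 0.24 and 0.25 without replicates 5 and 8, and 1.82 without replicate 6.

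**Figure D3:**
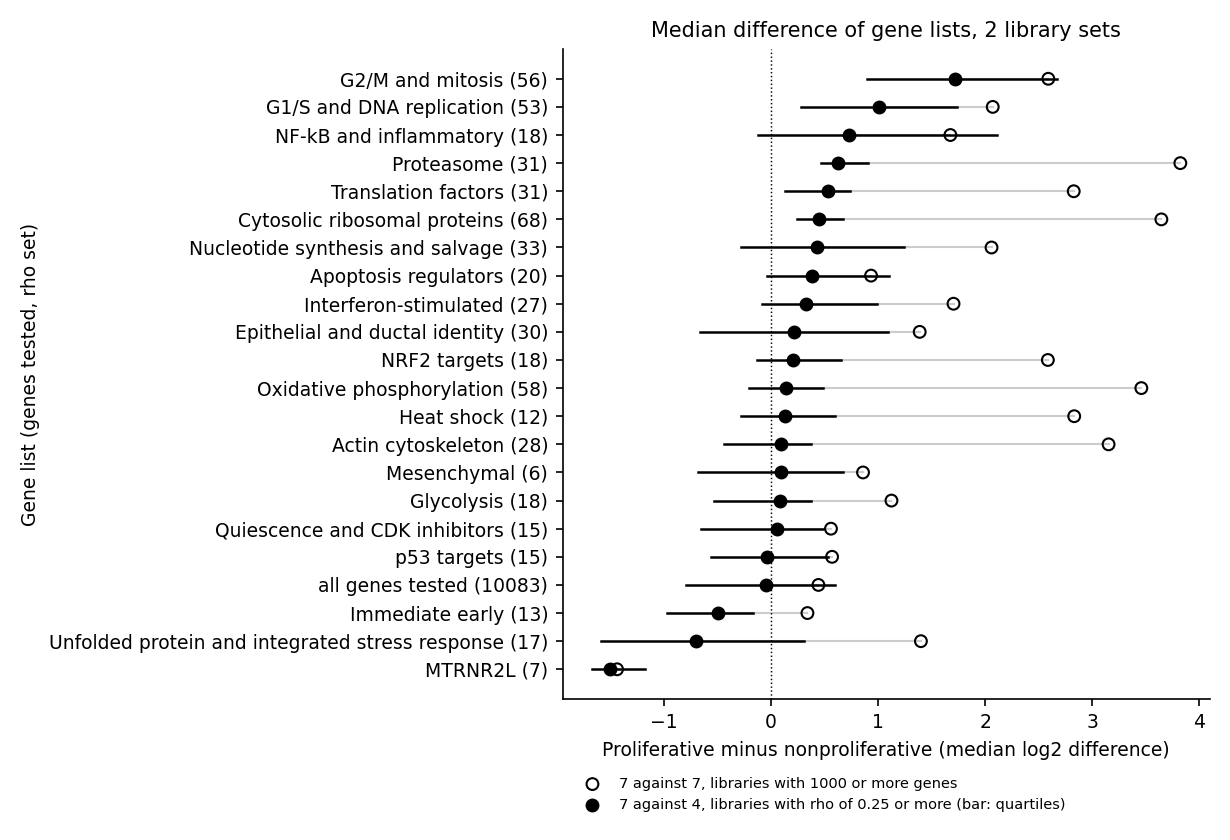
Median log2 difference, proliferative minus nonproliferative, of each gene list and of all genes, in the 7 against 7 libraries (open circles) and the 7 against 4 (filled circles, with bars for the quartiles over genes). Proteasome, ribosomal and respiratory genes move from medians above 3 to below 1, and the G2/M list from 2.59 to 1.72.

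Genes of withdrawal from the cycle differed in their balance between the 2 sets of libraries, and so did all genes tested. Of all genes, 4844 of 10083 were higher in proliferative rafts of the 7 against 4 comparison, with a median of -0.05. In the 7 against 7 comparison 7273 of 11560 were higher, with a median of 0.44. Of 15 quiescence genes and CDK inhibitors tested, 8 were higher and 7 lower in proliferative rafts of the 7 against 4 comparison, with a median of 0.06, and in the 7 against 7 comparison 11 were higher with a median of 0.56. CDKN1A, the p21 inhibitor, was at 34.2, 80.3, 38.2, 74.3, 34.1, 52.1 and 0 FPKM in the 7 proliferative rafts and at 40.7, 66.3, 18.3 and 9.49 FPKM in the 4 nonproliferative ones. CDKN1B, the p27 inhibitor, was listed at 0 in all 8 nonproliferative rafts and reached 1.27 and 2.56 FPKM in proliferative replicates 3 and 4. The p53 target list had 7 genes higher and 8 lower with a median of -0.03, against 11 higher of 16 with a median of 0.57 in the 7 against 7 comparison. GDF15, a secreted stress factor, was detected only in nonproliferative replicate 6 among the 16 rafts, at 18.6 FPKM. CCND1, the growth factor sensor among cyclins, was at 3.69 to 125 FPKM in the 7 and at 5.10, 28.8, 43.3 and 29.2 FPKM in the 4. MYC was at 0 to 39.1 FPKM and at 2.65, 11.5, 146 and 32.1 FPKM. None of these differences passed the test.

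Of the stress lists, immediate early genes were lower in 10 of 13 members with a median of -0.49 in the 7 against 4 comparison, but higher in 10 of 13 with a median of 0.34 in the 7 against 7. IER2, one of them, was at 0 to 21.6 FPKM in the proliferative rafts and at 41.4, 26.6, 37.6 and 24.3 FPKM in the nonproliferative ones, without overlap (difference -2.25 ± 1.41). Unfolded protein and integrated stress genes were lower in 10 of 17 with a median of -0.70, but higher in 14 of 17 in the 7 against 7 comparison. Interferon-stimulated genes were higher in 17 of 27 with a median of 0.32 in the 7 against 4 comparison. Over all genes tested the median was -0.05 there. In the 7 against 7 it was 0.44, with 7273 of 11560 genes higher, so the balance of all genes moved as well.

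MMP1, the collagenase that cuts fibrillar collagen, was the single gene to pass in the 7 against 4 comparison, 0.00992% of those tested. It was listed at 0 in all 8 proliferative rafts, and at 432, 10.8, 12.4 and 840.7 FPKM in nonproliferative replicates 5 to 8. Nonproliferative replicates 1 to 4 and the saline water were also listed at 0. The classes did not overlap within the 11 rafts of high rho, and the proliferative mean of log2(FPKM + 1) was lower by 6.45 ± 1.05 (SE, adjusted p = 0.00083 by limma). In the 7 against 7 comparison the difference was -3.68 ± 0.89 with an adjusted p of 0.249, and -5.27 with an adjusted p of 6.5e-06 under sample weights. MMP1 was at 2.15 to 16.9 FPKM in bulk and listed at 0 in 9 of 10 rafts with 1 cell. The test took its spread from all 4 arms, where most libraries of rho 0.25 or more were listed at 0 for MMP1. MMP1 met the filter of detection in at least 8 libraries only with the 4 saline nonproliferative rafts counted, where it was high. Outside saline it was detected in 2 nonproliferative rafts at 2 nM and in 1 proliferative raft of each other arm. Its entry into the test thus depended on the class compared. With the saline rafts alone and genes detected in at least 4 of them, an alternative chosen after seeing the data, the same difference had an adjusted p of 0.188. MMP1 was high in both nonproliferative rafts with few mitotic genes and low but present in the 2 with many.

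KRT7 and ITGA5, named by their p, did not pass. KRT7, a ductal keratin, was at 291, 235, 243, 142, 129, 345 and 577 FPKM in the 7 proliferative rafts and at 20.3, 0, 125 and 0 FPKM in nonproliferative replicates 5 to 8. All 7 lay above all 4, by a log2 difference of 5.12 ± 1.38 (adjusted p = 0.822 by limma). The 7 against 7 difference was 5.80 ± 1.88. KRT8, another keratin of simple epithelia, was at 634 to 2102 FPKM and at 35.0, 1076, 1377 and 132 FPKM, which overlapped. The ductal markers did not share the direction of KRT7. Of 9 tested in the 7 against 4 comparison, 4 were higher and 5 lower in proliferative rafts, with a median log2 difference of -0.68. ITGA5, the fibronectin receptor subunit, was at 2.59 and 6.93 FPKM in proliferative replicates 1 and 2, listed at 0 in the other 5, and at 24.2, 12.7, 17.1 and 42.5 FPKM in the 4 nonproliferative rafts (difference -3.82 ± 1.09, adjusted p = 0.924).

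Genes whose 7 proliferative rafts all lay above all 4 nonproliferative ones numbered 32, 0.329% of the 9720 genes with a row of their own, and 59, 0.607%, lay below. None of the 56 mitotic or 53 replication genes was among either. At shares this small, lists of that size would hold few or no such genes, so the absence says little about them. Whether the counts of 32 and 59 exceed those of chance was not tested. Among those above were, beside KRT7, the proteasome subunits PSMA5 and PSMD7, the translation factors EIF3K and EIF6, the ribosomal protein genes RPL37 and RPS24, NDUFB8 of respiratory complex I and TRIM28, a chromatin corepressor. PSMD7 was at 299.0 to 390.1 FPKM in the 7 and at 98.0, 240, 167 and 298.7 FPKM in the 4, so its classes nearly touched. Among those below were, beside MMP1 and ITGA5, the integrin subunits ITGA1 and ITGB4, HAS3, which makes hyaluronan, TNC, the matrix protein tenascin C, TIMP2, an inhibitor of metalloproteinases, and IL6R, the interleukin 6 receptor. HAS3 was at 0 to 11.9 FPKM in the proliferative rafts and at 12.6, 46.7, 21.5 and 40.5 FPKM in the others. IL6R was at 0 to 0.53 FPKM and at 1.54, 15.4, 6.22 and 9.0 FPKM, but it was also at 209, 29.1 and 51.8 FPKM in nonproliferative replicates 1 to 3 and at 44.0 FPKM in the saline water; the part of that background in the difference was not tested. TNC was also at 54.7 and 14.0 FPKM in nonproliferative replicates 1 and 3, and ITGB4 at 402 FPKM in proliferative replicate 5. Genes in this paragraph were picked from the 2 sets of non-overlapping genes after their values were seen.

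**Figure D4:**
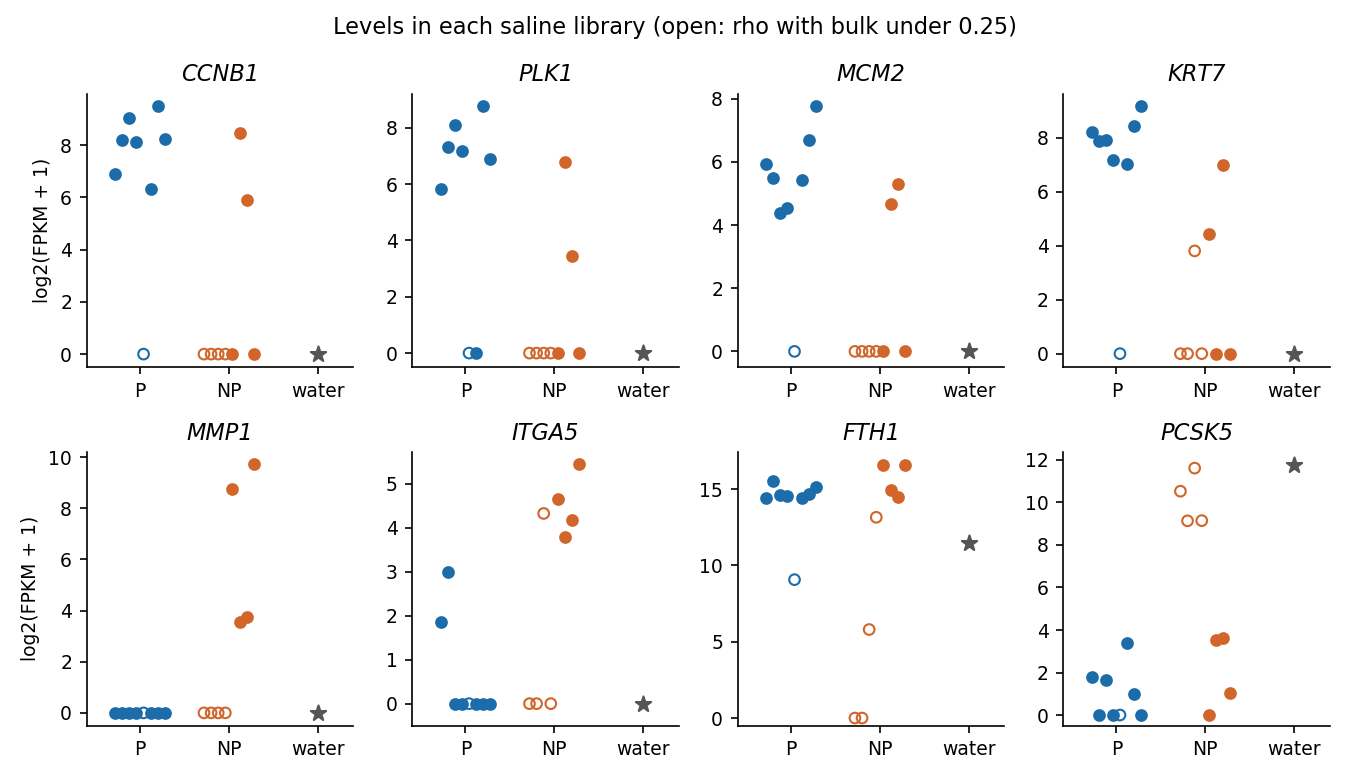
log2(FPKM + 1) of 8 genes in each saline library, with proliferative (P) and nonproliferative (NP) rafts in replicate order from left to right and the saline water as a star; open circles have a rho under 0.25. CCNB1, PLK1 and MCM2 are at 0 in NP 5 and NP 8, MMP1 is above 0 in NP 5 to NP 8 alone, and PCSK5 is high in NP 1 to NP 4 and in the water.

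FTH1, the ferritin heavy chain, was the most abundant gene of both nonproliferative rafts with few cycle genes, at 98951 FPKM in replicate 5 and 96011 FPKM in replicate 8, 14.6% and 13.3% of all their FPKM. Nonproliferative replicates 6 and 7 had 31055 and 22332 FPKM and the 7 proliferative rafts 21420 to 46454 FPKM (difference -0.87 ± 0.39, adjusted p = 0.999). FTH1 was also the most abundant gene of proliferative replicates 1, 2 and 6 and of nonproliferative replicate 6. Rafts with 1 cell had 24186 to 83522 FPKM. Proliferative rafts of rho 0.25 or more reached 100140 FPKM at 2 nM, 96853 FPKM at 5 nM and 94788 FPKM untreated. Their medians were 55698, 60923 and 24605 FPKM. CCNB1 was at 200 FPKM in the 2 nM raft with the most FTH1. It was listed at 0 in the 5 nM and the untreated raft with the most. Whether FTH1 and cycle genes go together across arms was not tested. FTH1 has many processed copies in the genome, so its level depends on how shared reads were assigned, and the same holds for the ribosomal protein genes and KRT18.

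The 2 genes with the smallest p in the 7 against 7 comparison were methyltransferases. SMYD5, a histone methyltransferase, was detected in 6 of 7 proliferative rafts at 2.89 to 40.4 FPKM and listed at 0 in all 8 nonproliferative rafts (difference 3.12 ± 0.69, adjusted p = 0.145). N6AMT2, a methyltransferase of elongation factor 1 alpha, was at 8.23 to 114 FPKM in all 7 and at 32.9 and 7.88 FPKM in nonproliferative replicates 6 and 7 alone (3.98 ± 0.91, adjusted p = 0.145). Bulk had 0 to 4.09 FPKM of SMYD5 and 20.6 to 47.4 FPKM of N6AMT2. In the 7 against 4 comparison their adjusted p were 0.822 and 0.999.

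For 4 abundant genes of metabolism and growth no difference passed the test in the rafts of high rho. ENO1, a glycolytic enzyme, was at 2029 to 4419 FPKM in proliferative and 1989 to 3031 FPKM in nonproliferative rafts (0.34 ± 0.57). LDHA, lactate dehydrogenase, was at 817 to 2136 FPKM and at 4585, 1231, 2133 and 480 FPKM (-0.40 ± 1.01). APRT, the adenine salvage enzyme, was at 415 to 1007 FPKM and at 1236, 853, 464 and 1336 FPKM (-0.32 ± 0.94). HMGA1, a chromatin protein of growing cells, was at 268 to 558 FPKM and at 200, 227, 365 and 497 FPKM (0.43 ± 1.04). All 4 pairs of ranges overlapped. The errors took their spread from all 4 arms. In other arms APRT and HMGA1 were listed at 0 in some nonproliferative rafts, so their errors do not describe the saline rafts alone.

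The saline difference was then set against that of the other arms in the same fit, which share no libraries with it. With libraries of at least 1000 genes no gene passed by limma for the difference between the saline effect and the mean effect of the other 3 arms, or between saline and untreated, 0.0% of 11560 genes in each, and 323 and 275 had an unadjusted p under 0.05. With libraries of rho 0.25 or more, 3 genes (0.0298% of 10083) had a smaller or more negative saline effect than the mean of the others, and 15 (0.149%) than the untreated arm, which then had 4 proliferative and 2 nonproliferative libraries. MMP1 was among the 3, with an effect lower by 6.20 ± 1.29 (adjusted p = 0.037 by limma). As in the saline comparison, MMP1 met the detection filter only with the saline nonproliferative rafts counted. Its entry into this test thus depended on a class compared, and most libraries behind its spread were listed at 0. Its effects were -6.45 in saline, 1.13 in untreated, -2.70 in 2 nM and 0.84 in 5 nM rafts. In proliferative rafts of the other arms MMP1 reached 22.1 FPKM in 1 untreated, 1.72 FPKM in 1 at 2 nM and 17.4 FPKM in 1 at 5 nM. APRT was another, with effects of -0.32, 9.67, -0.56 and 7.11 (adjusted p = 0.035), and the third name stands on several rows. Of the 15, TRMT112, a methyltransferase activator, had effects of 0.12 in saline and 9.91 in untreated rafts, HMGA1 of 0.43 and 9.72, and ENO1 of 0.34 and 5.10, and all 15 were lower in saline. The 2 untreated nonproliferative rafts had 2353 and 2196 genes detected, against 6428 to 9107 in the 4 saline ones. In those 2 rafts APRT was listed at 0, HMGA1 at 0 and 1.08 FPKM, and ENO1 at 189 and 65.4 FPKM. The part of such sparse libraries in the differences between arms was not tested.

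The mitotic list had medians of 1.72 in saline, 2.21 in untreated, -0.51 in 2 nM and 1.40 in 5 nM rafts of rho 0.25 or more, with 54, 52, 18 and 42 of 56 genes higher in proliferative rafts. The G1/S medians were 1.01, 1.65, 0.57 and 1.24. Medians over all genes were -0.05, 0.84, -0.04 and 0.78, so 2 arms were shifted as a whole. CCNB1 was detected in 7 of 7 saline, 2 of 4 untreated, 6 of 6 2 nM and 3 of 5 5 nM proliferative rafts, and in 2 of 4, 0 of 2, 2 of 3 and 0 of 3 nonproliferative rafts. KRT7 was detected in 2 of 4 saline, 1 of 2 untreated, 3 of 3 2 nM and 3 of 3 5 nM nonproliferative rafts, and in 7 of 7, 4 of 4, 6 of 6 and 4 of 5 proliferative rafts. Differences between the arms in these counts and medians were not tested.

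**Figure D5:**
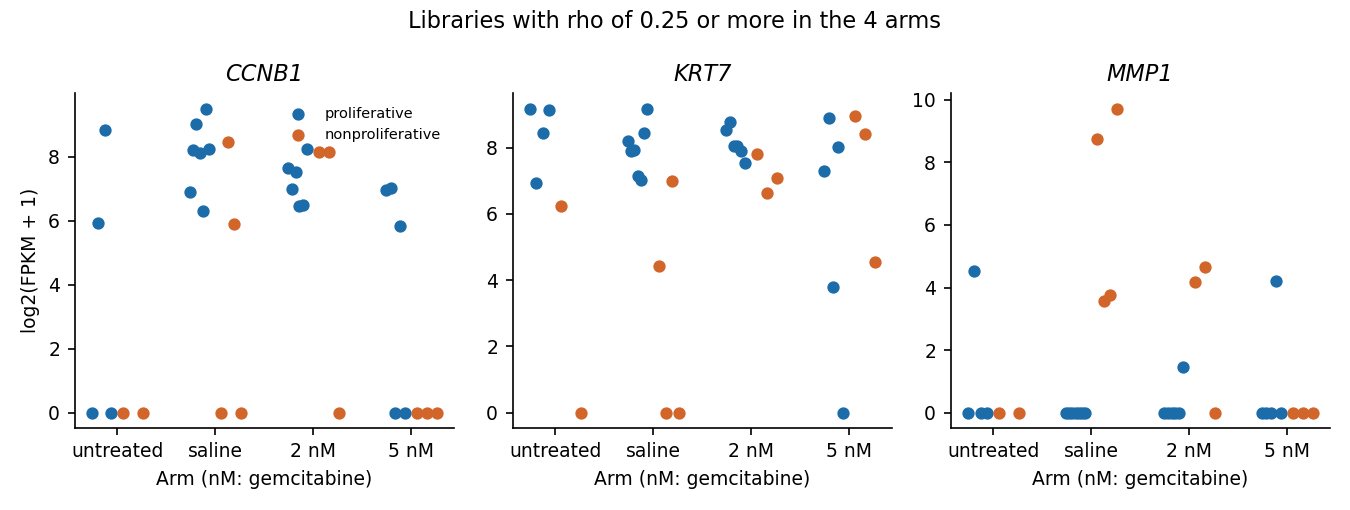
log2(FPKM + 1) of CCNB1, KRT7 and MMP1 in every proliferative and nonproliferative raft of rho 0.25 or more in the 4 arms, with 7 and 4 saline rafts. MMP1 is above 0 in 4 of 4 saline nonproliferative rafts, 2 of 3 at 2 nM and none of the untreated or 5 nM nonproliferative rafts; among proliferative rafts it is above 0 in 1 untreated, 1 at 2 nM and 1 at 5 nM.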

How the data were processed

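RNA of rafts, bulk, captures and water was sequenced from SMARTer and Nextera XT libraries, per the labels' protocols. The authors deposited 1 table of FPKM values, made with RSEM and hg19 per the submitters' processing notes, with 27118 distinct names, 1116 of them on several rows. Column totals were 339644 to 817990. Depth per library is unknown, so precision is given only as spread between rafts.

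Groups came from the labels. Members and gene lists were chosen with earlier results of these data known. limma 3.58.1 (limma-trend, R 4.3.3, two-sided, Benjamini-Hochberg, threshold 0.05) was run on log2(FPKM + 1), which understates changes of low genes. One fit held all 4 arms, with 52 libraries of at least 1000 genes and 11560 genes detected in at least 8, another 34 libraries of rho 0.25 or more and 10083 genes. Library measures were compared by exact permutation over 12870 assignments. On simulated data with 50 genes shifted at each size, the 7 against 7 comparison recovered 0, 4, 23 and 38 at log2 shifts of 1, 2, 4 and 6. The 7 against 4 comparison recovered 0, 0, 14 and 37, with 1 and 4 calls among unshifted genes. The simulated noise was normal and independent between genes, without the many values of 0 in these data, so recovery in the real data may differ. Named genes were, per direction, 10 genes (those passing, then those of smallest p) whose higher class had them detected in no fewer than 50% of its rafts, the members of smallest p of each list, 5 per direction of each contrast between arms, and a fixed list; pseudogenes, non-coding names and names on several rows were skipped. Lists were described by counts and medians. Promoter windows came from RefSeq (GRCh38.p14), matched by symbol. The labels give index pairs but no dates, so no batch within the arm could be formed. Python 3.11.15, pandas 2.3.3, scipy 1.17.1 and matplotlib 3.10.9 were used. One further gene is not reported here.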

Additional observations from a re-analysis of the deposited data

Results flagged for a closer look

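A check for single libraries far from their group was made on 26 sets of 8 saline rafts (the 3 library measures, 2 cycle lists and 8 genes in each class), and 7 stood out, where chance flags about 1 in 20. The checks read the same libraries and are not independent, so that rate cannot be set against the number of flags. All 7 were of 1 library, proliferative replicate 5, which its low rho had already set apart. It had the lowest rho with bulk of its class (0.080) and the highest share of off-bulk genes (27.6%). CCNB1, MCM2 and KRT7 were listed at 0 there, FTH1 was at 534 FPKM against 21420 to 46454 in the other 7, and TMEM45A was at 182 FPKM against 0 to 7.28. In the nonproliferative class, where 4 of 8 libraries had a low rho, no library stood apart by this check.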

How the results depend on the processing

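The 3 library measures kept their direction and stayed above an adjusted p of 0.05 at every detection threshold, reference and left-out library tried. Leaving out 1 library gave differences of 310.6 to 1810 genes, 0.226 to 0.359 in rho and -17.7 to -11.5 percentage points in the off-bulk share. In the 7 against 7 comparison the count of 0 genes became 2 with genes detected as a covariate (SMYD5 and N6AMT2) and 11 with sample weights (10 higher, and MMP1 lower), and left-out libraries gave 0 to 1: SMYD5 (adjusted p = 0.0094) without proliferative replicate 8 and N6AMT2 (adjusted p = 0.014) without nonproliferative replicate 6. In the 7 against 4 comparison the count of 1 became 4 without a filter on low values (MMP1, NPAS1, KIF3C and a pseudogene) and 0 with the saline rafts alone, with the usual filter, under which MMP1 was not tested, or with genes detected in at least 4, an alternative added after seeing the data. MMP1 passed by limma when each library was left out in turn, with adjusted p of 0.00010 to 0.033, and differences of -7.41 to -5.36. Each of these fits kept most of the saline nonproliferative rafts through which MMP1 met the filter, and the spread of all arms. They therefore cannot test its dependence on either. Unadjusted p under 0.05 were held by 1272 genes in the 7 against 7 comparison, and by 732, 671 and 758 without nonproliferative replicate 1, 3 or 4, 555 with a stricter minimum of genes per library and 2024 without a filter. They were held by 335 in the 7 against 4 comparison, and by 574 with the covariate, 745 with weights, 730 without a filter, and 410 and 632 in the 2 fits of saline rafts alone. The saline effect minus the mean of the other arms gave 1 gene with sample weights and 3 with libraries of rho 0.25 or more, and minus the untreated effect 2 and 15; left-out libraries, added after seeing the data, gave 0. Unadjusted counts for these 2 contrasts, 323 and 275, became 670 and 565 with weights, 656 and 509 without a filter and 580 and 651 with libraries of rho 0.25 or more. Of 7222 values of named genes under alternatives, 124 had the opposite sign, none of them past the threshold. The mitotic median stayed above 0 in all 25 alternatives of the 7 against 4 comparison (0.60 to 2.69), the G1/S median ran from -0.24 to 1.82 and was below 0 with the replicate block alone, and the quiescence median ran from -0.37 to 0.42. Rafts whose labels end in the same digit share their second index, which names no shared culture or day, and a replicate block on that digit was added after seeing the data. It gave 0 genes in the 7 against 7 comparison and in both contrasts between arms, and 0 in place of 1 in the 7 against 4, where 3 saline pairs were left, with 1371, 340, 333 and 320 genes at an unadjusted p under 0.05 in limma (the last fit: MMP1 -5.68, adjusted p = 1.0; mitotic median 0.60, G1/S -0.24, all genes -0.40). Deviations of the paired rafts correlated at -0.102 to 0.088 in 6 pairs and -0.084 to 0.019 in 3. Only proliferative replicate 3 in the 6 pairs, and nonproliferative replicate 7 in the 3, correlated best with its own digit. The digits were therefore not taken to pair the rafts. Without counts, what depth limits could not be measured; many low genes listed at 0 may not have been sampled.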

Other observations

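Other gene groups were compared in the 11 rafts of rho 0.25 or more, and no member passed the limma test. Epithelial and ductal identity genes were higher in proliferative rafts for 17 of 30, with a median log2 difference of 0.21, and actin cytoskeleton genes for 15 of 28, with 0.10. Genes of nucleotide synthesis and salvage were higher for 21 of 33 (median 0.43), NF-kB and inflammatory genes for 13 of 18 (0.73) and apoptosis regulators for 15 of 20 (0.38). NRF2 targets, the antioxidant genes among which FTH1 counts, were higher for 10 of 18 (0.20), and glycolysis genes for 10 of 18 (0.08). All 7 tested MTRNR2L genes, nuclear copies of a mitochondrial ribosomal RNA, were lower, with a median of -1.50. Reads of these copies and of the mitochondrial gene cannot be told apart here. The median over all genes tested was -0.05.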
